A study of Mus musculus with 8 samples.

Results

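Marked and unmarked regulatory T (Treg) cells that carried the Thy1.1 reporter of Foxp3 were compared across the transcriptome. They made up 4 of the 8 libraries of the study, taken by their sample titles: 2 of tdTomato-negative Thy1.1 cells, called unmarked here, and 2 of tdTomato-positive Thy1.1 cells, called marked. Of 24108 named genes, 13989 passed a filter on low counts and were compared. All libraries came from CD4 T cells of mesenteric lymph nodes of mice with the genotype Foxp3DTR-GFP/Thy1.1 CD4CreER/wt R26lsl-tdTomato/wt. In such mice a Foxp3 allele reports with the diphtheria toxin receptor and GFP or with Thy1.1, and tamoxifen activates a Cre recombinase under CD4 control that switches on the red protein tdTomato. The mark therefore reaches CD4-expressing cells in general and not Treg cells alone. The mice were bred under AVNM (an abbreviation left as the labels have it) on a diet of defined amino acids. They received tamoxifen, and diphtheria toxin during the roughly 3 weeks of labeling that followed, and were then given chow and colonized with microbiota of SPF mice. Cells were sorted in a double sort 12 days after colonization. Per the design text, the mark stands for CD4 T cells that were outside the thymus and lacked Foxp3 during labeling. The labels name the toxin receptor with GFP and not with Thy1.1. By the labels, Thy1.1 cells that already had Foxp3 at tamoxifen could be marked and would not be targets of the toxin. In Thy1.1 cells the mark therefore does not by itself show that Foxp3 was absent during labeling. Animal age, and how many animals each library stands for, were not given in the labels. The remaining 4 libraries, from marked and unmarked cells of the GFP reporter in the same mice by genotype, treatment and time, are used below only to set the label difference of Thy1.1 cells beside that of GFP cells.

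Foxp3 is the transcription factor that defines Treg cells, which restrain immune responses. Treg cells form in the thymus, and they also form from mature CD4 T cells outside it, in the intestine in response to microbes and food. Resting Treg cells recirculate through lymph nodes with the help of CCR7 and the sphingosine phosphate receptor, whereas effector Treg cells carry fewer of these receptors and more receptors for entry into tissue, suppressive molecules and inhibitory receptors.

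The 4 Thy1.1 libraries held 42702010 to 47908198 counts, with 15345 to 15863 genes detected. Across genes, the log2 CPM (counts scaled to a common library size) of the 2 unmarked libraries correlated with r = 0.953 and those of the 2 marked libraries with r = 0.966, and within each pair the counts differed beyond sampling noise (chi-square divided by its degrees of freedom, 43.0 and 38.3). Markers of CD4 T cells and Treg cells were present in each of the 4 libraries, with Cd3e at 999 to 1236 CPM, Cd4 at 301 to 343 CPM, Ctla4 at 348 to 460.3 CPM, Tnfrsf18 at 302 to 381 CPM and Ikzf4 at 194 to 247 CPM. Several defining markers of other cells were near 0: Ms4a1 did not exceed 0.741 CPM, Jchain 0.571, Mzb1 0.123, Ncr1 0.0205, Sox13 0.0467, Csf1r 0.296, H2-Aa 1.31 and Lyz2 1.88 CPM. Other markers were not near 0. The B cell gene Cd79a lay at 4.91 and 9.60 CPM in unmarked and at 6.04 and 10.2 CPM in marked cells, and the groups overlapped. Cd8b1 lay at 17.3 and 16.9 CPM against 15.7 and 9.99 CPM. The epithelial gene Epcam lay at 24.2 and 23.5 CPM against 37.7 and 43.5 CPM, with both marked libraries above. Siglech, a plasmacytoid dendritic cell gene, had 107 counts in unmarked and 0 in marked cells. That is at least 36.7-fold lower over the group, a bound that covers counting error only and not the spread between libraries. The 2 libraries of unmarked GFP cells lay at 36.8 and 0 CPM for Siglech. Cd8a lay at 7.16 and 6.96 CPM in unmarked cells and at 1.04 and 0.869 CPM in marked cells. Summed over a list of 15 B cell genes, of which 2 had 0 counts in all 4 libraries, levels were 99.3 and 107 CPM in unmarked and 129.8 and 148 CPM in marked cells. For 24 myeloid and dendritic cell genes, of which 5 had 0 counts, they were 549 and 587 CPM against 614 and 664 CPM. For 12 CD8 and natural killer cell genes, of which 2 had 0 counts, they were 42.3 and 45.4 CPM against 38.9 and 28.5 CPM. For 15 stromal and epithelial genes, of which 3 had 0 counts, they were 274 and 272 CPM against 226 and 227 CPM, and most of that was Pecam1, which T cells also express. The part of such genes in the results below was not tested.

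Marking went with small differences in Thy1.1 cells, and no gene passed the test. By edgeR's quasi-likelihood test with Benjamini-Hochberg adjustment at 0.05, 0 of 13989 genes were called (0%), and the lowest adjusted p was 0.259. An unadjusted p under 0.05 was found for 1063 genes (7.6%), of which 489 (3.5%) were higher and 574 (4.1%) lower in marked cells, and 51.1% of all genes had a log2 difference above 0. Without marked library 1 that number was 611, without marked library 2 it was 515 and without unmarked library 1 it was 665. Limma voom also called 0 genes (1151 with an unadjusted p under 0.05), whereas DESeq2 called 148, of which 73 were higher and 75 lower (1253 with an unadjusted p under 0.05). A fit of the 4 Thy1.1 libraries alone called 2 genes, Zfp599 among them, which was lower in marked cells. With 2 libraries against 2, an exact permutation test of a single gene cannot go below 0.333. The groups did not overlap for 6295 genes (45%), with 3250 higher (23.2%) and 3045 lower (21.8%) in both marked libraries. In bulk RNA a lower share of cells that express a gene and a lower level per cell cannot be told apart.

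The 4 libraries lay apart by label on the leading components of a principal component analysis of 10202 genes with a mean of at least 5 CPM over the 8 libraries. The first component held 54.1% of the variance and placed the unmarked Thy1.1 libraries at -33.3 and -32.9, the marked Thy1.1 libraries at -20.8 and -20.6, and the marked GFP libraries at 61.2 and 55.0. The second component held 16.4% and placed unmarked Thy1.1 libraries at 4.23 and 2.89 and marked ones at 21.1 and 20.7. On these components the distance between replicates was far below that between marked and unmarked cells. The third component held 12.2% and did not separate the labels, with the unmarked Thy1.1 libraries 1 and 2 at 6.49 and -8.08 and the marked ones at 7.53 and -1.81. For the genes with a mean of at least 5 CPM, the median standard error of the log2 label difference was 0.185.

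The label difference varied with gene length in both reporters. Among 9973 genes with a mean of at least 5 CPM, sorted by exonic length into 5 bins of equal size, the median log2 difference between marked and unmarked Thy1.1 cells was 0.11 in the shortest bin (up to 2584 bases) and -0.11 in the longest (from 7715 bases). The bins between them had medians of 0.04, -0.02 and -0.06. Within GFP cells the same medians were 0.24 and -0.20. Values with this trend removed are given below where they moved a list's median beyond the spread between replicates, and removing it left the number of called genes at 0.

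Genes of the naive and quiescent state were lower in marked cells. Of 26 such genes tested, 13 had an unadjusted p under 0.05 with lower levels and 1 with higher levels. The shares over all genes tested were 4.1% and 3.5%. Both marked libraries lay below both unmarked ones for 20 and above them for 1, against 21.8% and 23.2% of all genes. Counts of the lists below are to be read beside these shares. No member passed the adjusted edgeR test. DESeq2 called 5 members lower and 1 higher, against 75 lower and 73 higher of all 13989 genes. The median log2 difference was -0.36, against 0.01 over all 13989 genes. The summed level of the list was 13118 and 13664 CPM in unmarked cells and 10648 and 11054 CPM in marked cells. The exonic length of these genes had a median of 4962 bases against 4266 bases over all genes tested, and with the length trend removed the median difference was -0.35.

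Satb1, a chromatin organizer of T cell development, lay at 686 and 725 CPM in unmarked and at 385 and 415 CPM in marked cells. That is a log2 difference of -0.82 ± 0.10 (SE, 2 libraries per group; edgeR adjusted p = 0.259). Bach2, a transcriptional repressor that holds T cells in a resting state, lay at 515 and 542 CPM against 326 and 317 CPM. Its difference was -0.72 ± 0.12 (edgeR adjusted p = 0.311). The marked libraries of both genes sat close together and well below the unmarked ones.

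The receptors that keep T cells in lymph nodes and in circulation followed. S1pr1, the sphingosine phosphate receptor for exit from lymph nodes, was at 695 and 704 CPM in unmarked and at 469 and 439 CPM in marked cells. The difference of S1pr1 was -0.62 ± 0.11 (edgeR adjusted p = 0.322). Ccr7, the receptor for entry into the T cell zone, had the smaller difference of -0.31 ± 0.12, from 559 and 565 CPM to 438 and 470.1 CPM. Klf2, a factor that drives S1pr1, was at 617 and 616 CPM against 489.9 and 514 CPM. Neither pair of groups overlapped.

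Other members of the naive list held smaller differences or none. Lef1, a factor of the Wnt pathway, lay at 589 and 654 CPM against 483 and 448 CPM (-0.42 ± 0.09). Bcl2, which protects resting cells from death, lay at 938 and 1144 CPM against 670.3 and 837 CPM (-0.47 ± 0.17). Btg1, an antiproliferative gene, was the exception with higher levels in marked cells, at 1215 and 1212 CPM against 1487 and 1516 CPM (0.31 ± 0.06, edgeR adjusted p = 0.38). Id3, an inhibitor of E proteins, overlapped between the groups, with 166 and 155 CPM in unmarked and 176 and 148 CPM in marked cells. Its difference was 0.01, with a 95% interval from -0.29 to 0.31.

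**Figure D1:**
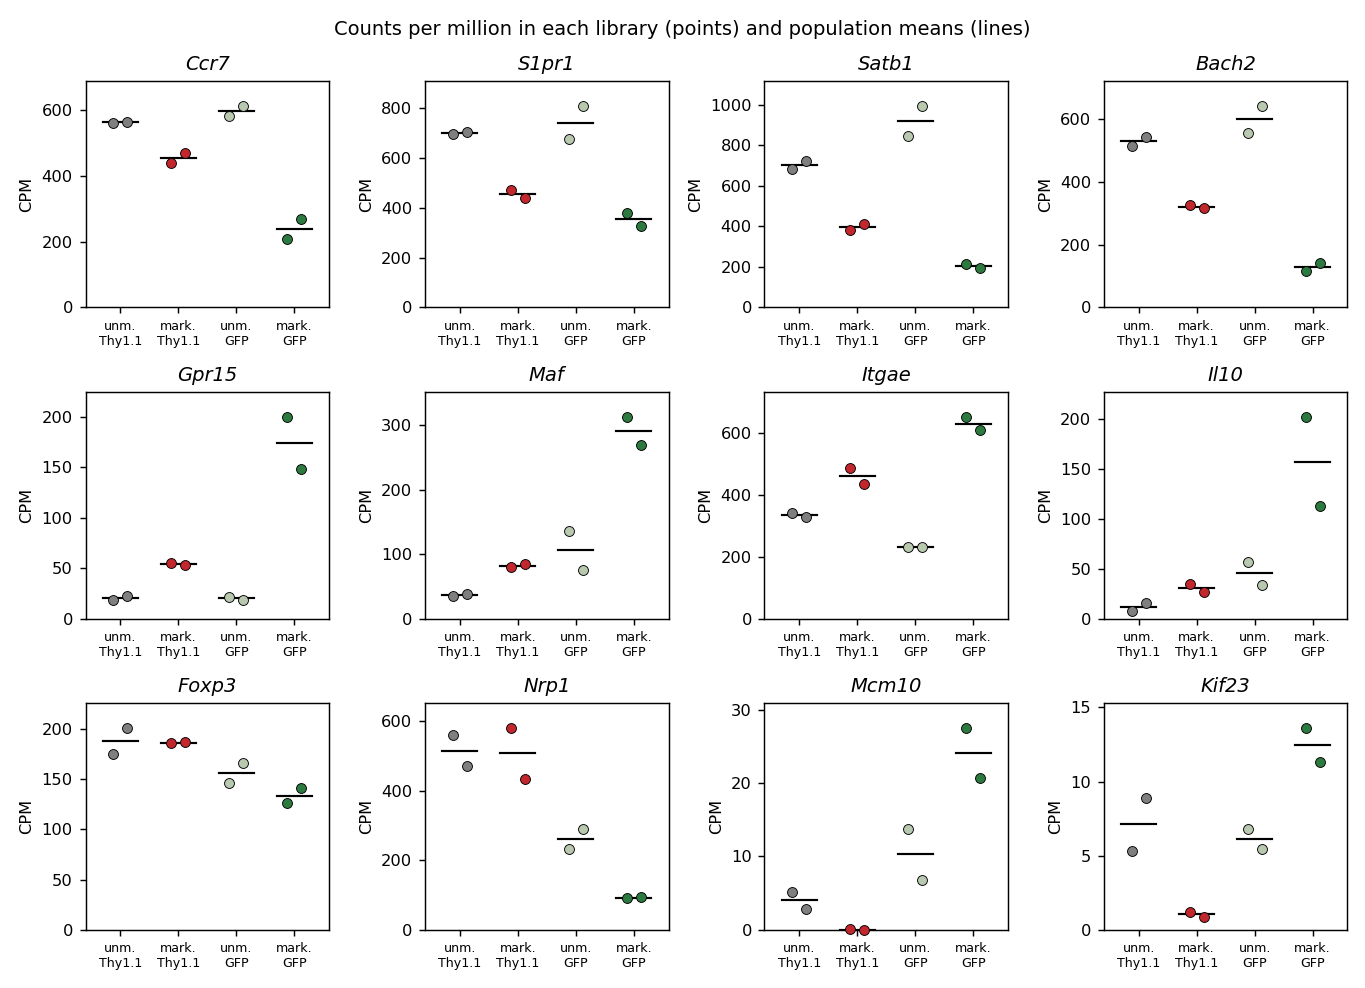
CPM of 12 genes (vertical axes, each from 0) in the 8 libraries, by population on the horizontal axes (unm., unmarked; mark., marked). Points are libraries and lines are means of 2. For Ccr7, S1pr1, Satb1 and Bach2 both marked Thy1.1 libraries lie below both unmarked ones, for Gpr15, Maf, Itgae and Il10 above them, and for Foxp3 and Nrp1 the Thy1.1 groups overlap. Kif23 and Mcm10 are lower in marked Thy1.1 cells, and Mcm10 has 2 counts there in all.

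Thymocyte and recent thymic emigrant genes were split. Of 24 tested, 6 had an unadjusted p under 0.05 with lower and 4 with higher levels, and the median was -0.10 (-0.03 with the length trend removed). Sox4, a factor of early T cells, lay at 14.8 and 11.9 CPM in unmarked and at 3.97 and 6.13 CPM in marked cells, a difference of -1.40 ± 0.29. Tox2, a relative of the T cell development factor Tox, went the other way. It lay at 27.2 and 37.0 CPM against 69.8 and 62.3 CPM (1.04 ± 0.25). Tox itself was at 350.4 and 351 CPM against 438 and 426 CPM (0.30 ± 0.08). Itm2a, a membrane protein gene of activated thymocytes, was at 99.0 and 99.1 CPM against 79.1 and 74.0 CPM (-0.37 ± 0.15).

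Treg genes associated with a thymic origin gave no common direction. Of 12 tested, 2 had an unadjusted p under 0.05 with higher and 2 with lower levels, and the median was -0.18 (-0.08 with the length trend removed and also -0.08 without unmarked library 1). Ikzf2, which encodes Helios, lay at 627 and 696 CPM in unmarked and at 728 and 847 CPM in marked cells. Its difference was 0.25 ± 0.24, with a 95% interval from -0.30 to 0.80. Nrp1, a co-receptor of semaphorins on thymic Treg cells, lay at 558 and 471 CPM against 578 and 435 CPM, and its difference was -0.02 with an interval from -0.39 to 0.35. Cd83, a surface molecule of activated Treg cells, lay at 224 and 237 CPM against 295 and 333 CPM (0.45 ± 0.10). Gata1 lay at 63.6 and 50.2 CPM against 38.3 and 37.7 CPM (-0.58 ± 0.26). These intervals leave room for differences of Helios and Nrp1 in either direction.

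Genes of effector Treg cells were higher in marked cells. Of 27 tested, 16 had an unadjusted p under 0.05 with higher levels and 1 with lower levels, against 3.5% and 4.1% of all genes. Both marked libraries lay above both unmarked ones for 21 and below them for 1, against 23.2% and 21.8% of all genes. The member with lower levels, Myb, is a factor of progenitor cells. The median difference was 0.53, as it was with the length trend removed. The summed level was 2648 and 2739 CPM in unmarked and 3558 and 3451 CPM in marked cells. No member passed the adjusted edgeR test. DESeq2 called 5 members higher and 0 lower, against 73 higher and 75 lower of all 13989 genes.

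Maf, a factor of interleukin-10 production, lay at 34.8 and 38.1 CPM in unmarked and at 79.5 and 84.1 CPM in marked cells, a difference of 1.17 ± 0.25 (edgeR adjusted p = 0.38). Il10 itself, the cytokine, lay at 7.37 and 15.5 CPM against 34.9 and 26.6 CPM (1.43 ± 0.42). Itgae, which encodes the integrin CD103 that holds cells at epithelia, lay at 341 and 328 CPM against 486 and 436 CPM (0.46 ± 0.09, edgeR adjusted p = 0.323). The 2 marked libraries were above the 2 unmarked ones for each of these genes, although Maf and Il10 were low in absolute terms.

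The costimulator Icos lay at 220.0 and 271 CPM in unmarked and at 379 and 425 CPM in marked cells (0.71 ± 0.19). Prdm1, which encodes the effector factor Blimp-1, lay at 34.1 and 40.9 CPM against 56.5 and 57.3 CPM (0.60 ± 0.17). Klrg1, a receptor of terminally differentiated cells, lay at 27.6 and 27.6 CPM against 55.5 and 45.7 CPM, and its interval was wide (0.88, from -0.33 to 2.08). Among inhibitory receptors, 4 of 15 had an unadjusted p under 0.05 with higher and 0 with lower levels, and the median was 0.33. Pdcd1, which encodes PD-1, lay at 106 and 102 CPM against 157 and 143 CPM (0.53 ± 0.15). Lag3, an MHC class II receptor, lay at 14.5 and 21.4 CPM against 27.9 and 30.1 CPM (0.69 ± 0.21). Havcr2, which encodes TIM-3, was near its lower end at 1.76 and 1.42 CPM against 3.89 and 3.95 CPM (1.30 ± 0.28).

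Among those of the 40 lists that had at least 10 tested members, intestinal Treg genes had the largest median. Larger medians were found for gamma-delta T cell genes (2.71, 2 tested) and erythroid genes (1.04, 5 tested). The lists were chosen with earlier results of these data known, so the rank is descriptive only. Of 17 tested, 10 had an unadjusted p under 0.05 with higher and 0 with lower levels, against 3.5% and 4.1% of all genes. For 12 both marked libraries lay above both unmarked ones, against 23.2% of all genes. The median was 0.71 (0.69 with 1 member of very low count set to the bound that 3 counts allow). Gpr15, a receptor for homing to the colon, lay at 18.02 and 22.7 CPM in unmarked and at 55.4 and 52.9 CPM in marked cells. Its difference was 1.41 ± 0.19 (edgeR adjusted p = 0.283), and its exons overlap those of Cpox. Several members, Maf, Il10, Icos, Lag3 and Havcr2 among them, are also in the effector list, so the lists are not separate results.

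Of 22 genes of GATA3-expressing tissue Treg cells, 10 had an unadjusted p under 0.05 with higher and 0 with lower levels, and the median was 0.52. Ccr2, a receptor for inflamed tissue, lay at 54.0 and 56.7 CPM in unmarked and at 101 and 119 CPM in marked cells (0.99 ± 0.22). Ccr8 lay at 34.0 and 34.3 CPM against 53.8 and 52.3 CPM (0.64 ± 0.17). The factor gene itself, Gata3, lay at 167 and 157 CPM against 219.8 and 228 CPM (0.47 ± 0.23). Il1rl1, the gene of ST2, overlapped between the groups at 33.2 and 43.4 CPM against 32.7 and 50.6 CPM, with a difference of 0.12 (from -0.63 to 0.88). Among 29 homing receptors and integrins, 10 had an unadjusted p under 0.05 with higher levels, 4 with lower levels, and the median was 0.49. The members with lower levels include S1pr1, Ccr7 and the integrin gene Itgb7. The summed level of the 32 listed members was lower in marked cells, at 7652 and 7445 CPM in unmarked against 6991 and 6806 CPM in marked cells.

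Genes of helper T cell programmes had positive medians as well. Of 9 Th2 genes, 5 had an unadjusted p under 0.05 with higher and 1 with lower levels, and the median was 0.64 (0.53 with the length trend removed). The cytokine gene Il4 lay at 2.90 and 2.90 CPM in unmarked and at 10.4 and 7.50 CPM in marked cells (1.63 ± 0.36, edgeR adjusted p = 0.38). Of 18 Th1 genes, 2 had higher and 1 lower levels by the same threshold, against 3.5% and 4.1% of all genes. The Th1 median was 0.36 (0.21 without unmarked library 1). Tbx21, which encodes T-bet, lay at 5.97 and 3.64 CPM against 10.0 and 9.46 CPM (1.02 ± 0.33). Of 13 Th17 genes, 4 had higher and 0 lower levels, with a median of 0.53 (0.49 with 2 members of very low count at their bound and 0.83 without unmarked library 2), and Il17re, an interleukin-17 receptor subunit gene, lay at 0 and 0.257 CPM against 3.72 and 2.10 CPM. Of 15 follicular genes, 5 had higher and 0 lower levels, with a median of 0.53 (0.31 without unmarked library 1). Sh2d1a, which encodes the adaptor SAP, lay at 117 and 108 CPM against 179 and 191 CPM (0.72 ± 0.18).

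**Figure D2:**
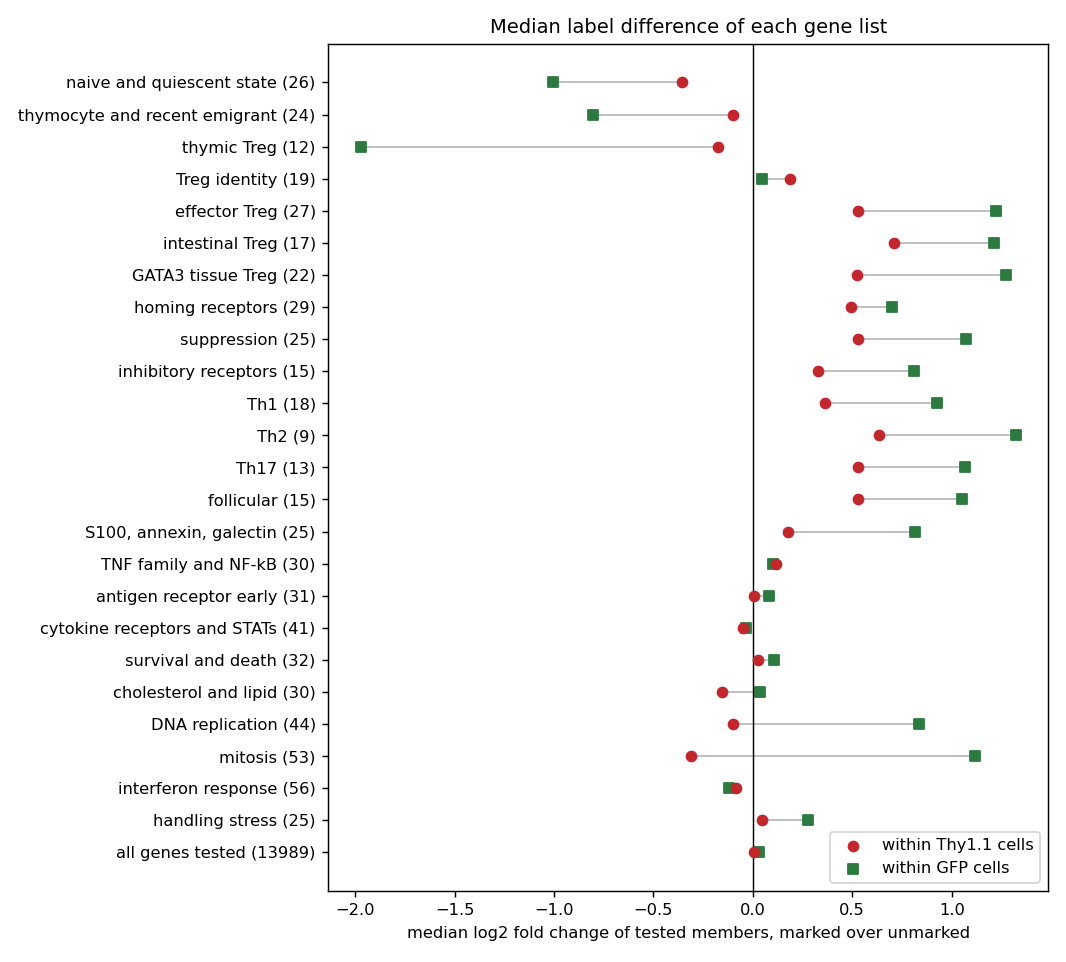
Median log2 fold change of marked over unmarked cells (horizontal axis) for the tested members of 24 gene lists and for all genes, with the number of members in brackets. Red points are within Thy1.1 cells and green squares within GFP cells. In Thy1.1 cells the naive list has a median of -0.36 and the intestinal Treg list 0.71, while the mitosis list lies at -0.31 in Thy1.1 cells and at 1.12 in GFP cells.

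Suppressive molecules were higher in marked cells in part. Of 25 tested, 9 had an unadjusted p under 0.05 with higher and 0 with lower levels, against 3.5% and 4.1% of all genes. Both marked libraries lay above both unmarked ones for 20 and below them for 1, against 23.2% and 21.8% of all genes. The median was 0.53. The summed level of the 26 listed members overlapped between the groups, at 3240 and 3704 CPM in unmarked and 3562 and 3717 CPM in marked cells. Il1r2, a decoy receptor for interleukin-1, lay at 13.7 and 13.8 CPM in unmarked and at 29.4 and 39.8 CPM in marked cells (1.33 ± 0.37). Ctla4, which removes costimulatory ligands, lay at 362 and 348 CPM against 429 and 460.3 CPM (0.33 ± 0.15, edgeR adjusted p = 0.658). Gzmb, a granzyme gene, lay at 42.4 and 34.1 CPM against 82.2 and 73.8 CPM (1.03, from -0.02 to 2.07). In each of the 3 genes the groups did not overlap.

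The reporter genes overlapped or differed little between the groups, and some Treg identity genes were higher in marked cells. Foxp3 lay at 175 and 201 CPM in unmarked and at 186 and 187 CPM in marked cells, and its difference was -0.01 ± 0.12 with an interval from -0.28 to 0.26. Ccdc22 and Ppp1r3f have exons that overlap Foxp3, and the alleles are engineered, so the level is uncertain. The sign of so small a difference changed with the scaling, to 0.03 with library totals. Thy1, which is read from the T cell's own gene and may be read from the reporter, lay at 80.8 and 72.6 CPM against 83.5 and 93.2 CPM (0.20 ± 0.13). Of 19 Treg identity genes, 4 had an unadjusted p under 0.05 with higher and 0 with lower levels. Both marked libraries lay above both unmarked ones for 11 and below them for 3, against 23.2% and 21.8% of all genes. The median was 0.18, with 0.09 without unmarked library 1 and 0.10 without marked library 2.

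Cell cycle genes were lower in marked cells for a few members. Of 53 mitosis genes, 8 had an unadjusted p under 0.05 with lower and 1 with higher levels, and the median was -0.31 (-0.09 without unmarked library 1). Of 44 DNA replication genes, 4 had lower and 0 higher levels, against 4.1% and 3.5% of all genes at this threshold. Their median was -0.10 (-0.05 with the length trend removed and -0.04 without marked library 2). The summed level of the mitosis list overlapped between the groups, at 532 and 486 CPM in unmarked and 520.5 and 471 CPM in marked cells. Mki67, which encodes Ki-67, lay at 8.15 and 7.52 CPM against 13.2 and 5.21 CPM, with a difference of 0.24 (from -0.65 to 1.12). Mcm2, a subunit gene of the replicative helicase, lay at 101 and 112 CPM against 91.8 and 89.7 CPM (-0.23 ± 0.10).

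The members with the lowest p were genes of low level, and the promoters of 3 of them are shown with the motifs searched for in the promoters of their lists. Each line gives the 250 bases before the RefSeq start of the gene, 5′ to 3′ on its own strand, from the RefSeq table for build GRCm38.p6. Mcm10 lies at chr2:5012792-5013041 and Kif23 at chr9:61946800-61947049, both on the minus strand, and capitals mark the CCAAT box, CCAAT on either strand. E2f7 lies at chr10:110745189-110745438 on the plus strand, and capitals mark the E2F motifs TTTCCCGC and TTGGCGC on either strand, which do not overlap each other there.
Mcm10: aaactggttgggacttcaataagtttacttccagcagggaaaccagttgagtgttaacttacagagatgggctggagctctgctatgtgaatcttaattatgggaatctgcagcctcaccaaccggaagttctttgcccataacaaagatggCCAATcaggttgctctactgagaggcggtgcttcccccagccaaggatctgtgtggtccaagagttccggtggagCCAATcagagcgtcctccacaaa
Kif23: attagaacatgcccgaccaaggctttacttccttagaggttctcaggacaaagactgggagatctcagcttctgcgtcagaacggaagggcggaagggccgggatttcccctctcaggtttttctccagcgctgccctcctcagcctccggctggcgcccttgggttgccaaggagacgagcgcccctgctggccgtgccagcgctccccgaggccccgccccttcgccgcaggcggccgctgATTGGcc
E2f7: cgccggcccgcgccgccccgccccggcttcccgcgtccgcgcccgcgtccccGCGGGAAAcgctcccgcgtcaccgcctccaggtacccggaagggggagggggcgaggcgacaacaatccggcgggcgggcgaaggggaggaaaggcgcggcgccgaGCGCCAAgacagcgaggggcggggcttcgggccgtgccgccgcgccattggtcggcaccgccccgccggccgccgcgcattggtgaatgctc
A promoter was found for 10766 of the 13989 genes tested. The CCAAT box was present in 75.0% of 44 mitosis promoters and in 59.5% of 37 DNA replication promoters, against 36.4% of the promoters of genes tested and 33.8% of all 32851 promoters of the table. The motif TTTCCCGC was present in 10.8% of DNA replication and 0% of mitosis promoters, against 1.65% for genes tested and 0.895% of all. The motif TTGGCGC was present in 13.5% of DNA replication and 11.4% of mitosis promoters, against 3.45% and 1.97%.

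Mcm10, a factor that starts DNA replication, had 246 and 124 counts (5.21 and 2.90 CPM) in unmarked libraries and 2 and 0 counts in marked ones. The ratio of unmarked to marked cells was 190, with a counting interval from 52.3 to 1577. Kif23, a motor protein gene of cell division, lay at 5.33 and 8.92 CPM against 1.19 and 0.891 CPM, a difference of -2.77 ± 0.43 (edgeR adjusted p = 0.283). E2f7, a repressor of E2F targets, lay at 1.33 and 5.02 CPM against 0.0409 and 0.114 CPM. These genes were low in all 4 libraries, and the unmarked libraries of Mcm10 and E2f7 differed between themselves.

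Uhrf1, which carries DNA methylation through replication, lay at 20.8 and 26.4 CPM in unmarked and at 11.5 and 8.78 CPM in marked cells (-1.22 ± 0.27). Nuf2, a kinetochore gene, lay at 1.80 and 1.91 CPM against 0.552 and 0.617 CPM (-1.66 ± 0.42). Racgap1, which acts with Kif23 in cytokinesis, went the other way, at 16.8 and 18.4 CPM against 32.2 and 28.9 CPM (0.80 ± 0.19). Cdkn2c, an inhibitor of G1 cyclin-dependent kinases, lay at 3.90 and 6.94 CPM against 14.2 and 11.5 CPM (1.25 ± 0.32). The binding partners Kif23 and Racgap1 thus lay on opposite sides in the same libraries.

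Survival genes were mixed, with a median of 0.03 over 32 members, 4 with higher and 1 with lower levels at an unadjusted p under 0.05. Bik, a death-promoting relative of Bcl2, had 0 counts in unmarked and 136 in marked cells. That is at least 44.1-fold higher over the group, a bound that covers counting error only. Bbc3, which encodes the death-promoting protein PUMA, lay at 17.8 and 25.2 CPM against 38.7 and 39.9 CPM (0.87 ± 0.21). Bcl2a1b, a protective member with near-identical copies that can share reads, lay at 55.5 and 65.5 CPM against 88.3 and 82.5 CPM (0.50 ± 0.16). Together with Bcl2, which was lower, 2 death-promoting and 1 protective member were higher in marked cells.

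Among 41 cytokine receptor and STAT pathway genes, 7 had an unadjusted p under 0.05 with lower and 1 with higher levels, and the median was -0.05 (0.01 with the length trend removed). Il17ra, a receptor subunit gene for interleukin-17, lay at 339.5 and 376 CPM in unmarked and at 265 and 214 CPM in marked cells (-0.58 ± 0.14), and the kinase gene Jak1 at 1432 and 1492 CPM against 1201 and 1051 CPM (-0.38 ± 0.11). Among 30 TNF family and NF-kB genes, 8 had higher and 1 lower levels, with a median of 0.11. The adhesion molecule gene Icam1 lay at 100.2 and 109 CPM against 143 and 144 CPM (0.46 ± 0.12) and the NF-kB subunit gene Relb at 103 and 90.1 CPM against 132 and 131 CPM (0.45 ± 0.12). Of 30 cholesterol and lipid synthesis genes, 5 had lower and 0 higher levels, with a median of -0.16. Of 25 S100, annexin and galectin genes, 5 had higher and 0 lower levels, with a median of 0.18 (0.09 with the length trend removed). S100a6 lay at 11.4 and 13.5 CPM against 25.3 and 23.0 CPM (0.96 ± 0.36) and S100a11 at 37.2 and 39.8 CPM against 73.2 and 68.9 CPM (0.88 ± 0.32).

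Genes of antigen receptor signalling and of handling had medians close to 0, but non-overlapping members were more often higher than lower in marked cells. Of 31 early genes of the antigen receptor response, 3 had an unadjusted p under 0.05 with higher and 0 with lower levels, and the median was 0.01. Of 25 genes of handling stress, 1 had higher and 0 lower levels, and the median was 0.05. Over all genes tested the shares at this threshold were 3.5% and 4.1%. Both marked libraries lay above both unmarked ones for 11 of the 31 early genes and below them for 2. For the 25 stress genes these counts were 10 and 2. The shares over all genes were 23.2% and 21.8%. Without unmarked library 2 the median of the stress list was -0.04 and without unmarked library 1 it was 0.18.

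Outside the lists, genes among those with the lowest p included a run of high-level genes with close replicates, named after their values were seen. Fam65b, an inhibitor of the GTPase RhoA, lay at 1234 and 1277 CPM in unmarked and at 855 and 842 CPM in marked cells (-0.57 ± 0.08, edgeR adjusted p = 0.283). Galnt10, an enzyme that starts O-linked glycosylation, lay at 368 and 346 CPM against 219 and 189.7 CPM (-0.80 ± 0.12). Uck2, a uridine-cytidine kinase, lay at 104 and 113 CPM against 65.9 and 67.1 CPM (-0.71 ± 0.11). Higher in marked cells were Kcna3, which encodes the potassium channel Kv1.3, with 162 and 165 CPM against 252 and 236 CPM (0.58 ± 0.09), and Eea1, a tether of early endosomes, with 55.6 and 50.4 CPM against 92.9 and 87.4 CPM (0.77 ± 0.12). Zfp599, a zinc finger gene, was not among those with the lowest p (edgeR adjusted p = 0.677). It is named because the fit of the 4 Thy1.1 libraries alone called it. It lay at 696 and 657 CPM in unmarked and at 161 and 174 CPM in marked cells (-2.01, from -4.17 to 0.15). In GFP cells Zfp599 was at 179 and 753 CPM in unmarked and at 949 and 188 CPM in marked cells, so the 2 libraries of each GFP group lay far apart.

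The interferon response separated the libraries by their number and not by the label. The promoter of Isg15, at chr4:156200819-156201068 on the minus strand, is shown for its interferon response element; the window is the same 250 bases of RefSeq build GRCm38.p6, and capitals mark GAAA, any 2 bases and GAAA on either strand, which matches there 3 times with overlap.
Isg15: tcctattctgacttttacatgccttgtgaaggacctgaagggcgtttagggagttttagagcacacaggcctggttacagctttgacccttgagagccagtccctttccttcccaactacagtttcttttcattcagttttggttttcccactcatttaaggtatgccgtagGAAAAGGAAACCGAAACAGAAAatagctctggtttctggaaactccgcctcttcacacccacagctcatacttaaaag
The motif was present in 57.1% of 42 interferon response promoters, against 2.66% for genes tested and 2.98% of all promoters. Isg15, a ubiquitin-like antiviral protein gene, lay at 16.2 CPM in library 1 and 50.3 CPM in library 2 of unmarked cells, and at 17.9 and 58.3 CPM in libraries 1 and 2 of marked cells. Ifit3, an antiviral RNA-binding protein gene, lay at 8.11 and 160.0 CPM and at 16.5 and 174 CPM in the same order. All 56 tested members of the list were higher in library 2 than in library 1 in both populations, against 25.8% of all genes tested. Marked and unmarked cells overlapped for all 56. With such a gap between library numbers, that overlap says little about the label. The summed level was 5416 and 10263 CPM in unmarked and 5261 and 9697 CPM in marked cells. The median label difference was -0.08, with -0.58 without marked library 2 and 0.62 without unmarked library 2.

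**Figure D3:**
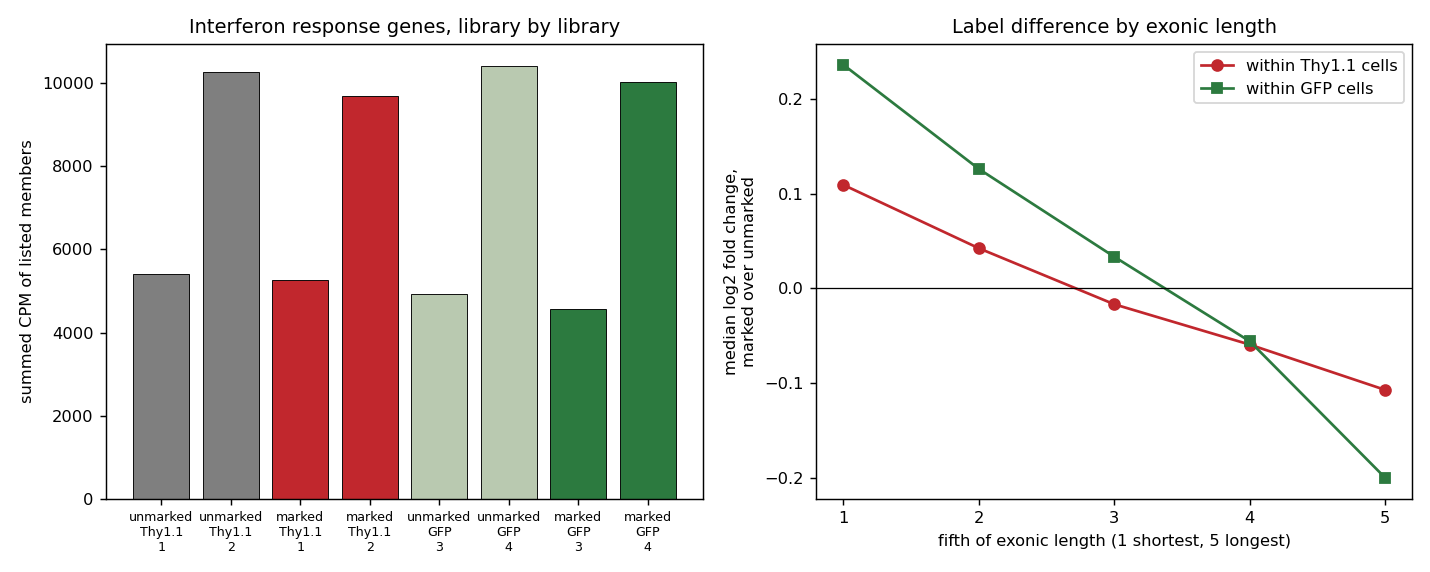
Left, summed CPM of 61 interferon response genes (vertical axis, from 0) in each library; the 2 libraries of each population differ by close to 2-fold, with 5416 and 10263 CPM in unmarked Thy1.1 cells and 5261 and 9697 CPM in marked ones. Right, median log2 fold change of marked over unmarked cells (vertical axis) in 5 bins of exonic length (horizontal axis), falling from 0.11 to -0.11 in Thy1.1 cells and from 0.24 to -0.20 in GFP cells.

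The label difference in Thy1.1 cells was set beside that in GFP cells, which share no library with it. In GFP cells 1768 genes were called (12.6%), of which 873 rose (6.24%) and 895 fell (6.4%) in marked cells; the count was 458 without unmarked GFP library 4, 952 and 956 without either marked Thy1.1 library, 969 without marked GFP library 3 and 1065 without either unmarked Thy1.1 library. Of the 1768 genes, 1504 (85.1%) had the same direction in Thy1.1 cells, against 64.1% of all genes tested. The median difference of the genes that rose was 0.82 in GFP cells and 0.21 in Thy1.1 cells, and that of the genes that fell was -0.97 and -0.24. The Thy1.1 difference was the smaller one for 1757 of the 1768. These genes were chosen by their GFP values, which favors a larger difference in GFP cells, so these sizes are not an even comparison. Over all 13989 genes the Thy1.1 difference was the smaller one for 9722. Of the 1063 genes with an unadjusted p under 0.05 in Thy1.1 cells by edgeR, it was the smaller one for 548. Across the 1768 genes, which are not independent replicates and share the length trend, the differences correlated with r = 0.551 and rho = 0.691. In both marked Thy1.1 libraries 1113 of them (62.95%) lay beyond both unmarked ones in the direction of the GFP difference, against 32.6% of all genes.

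**Figure D4:**
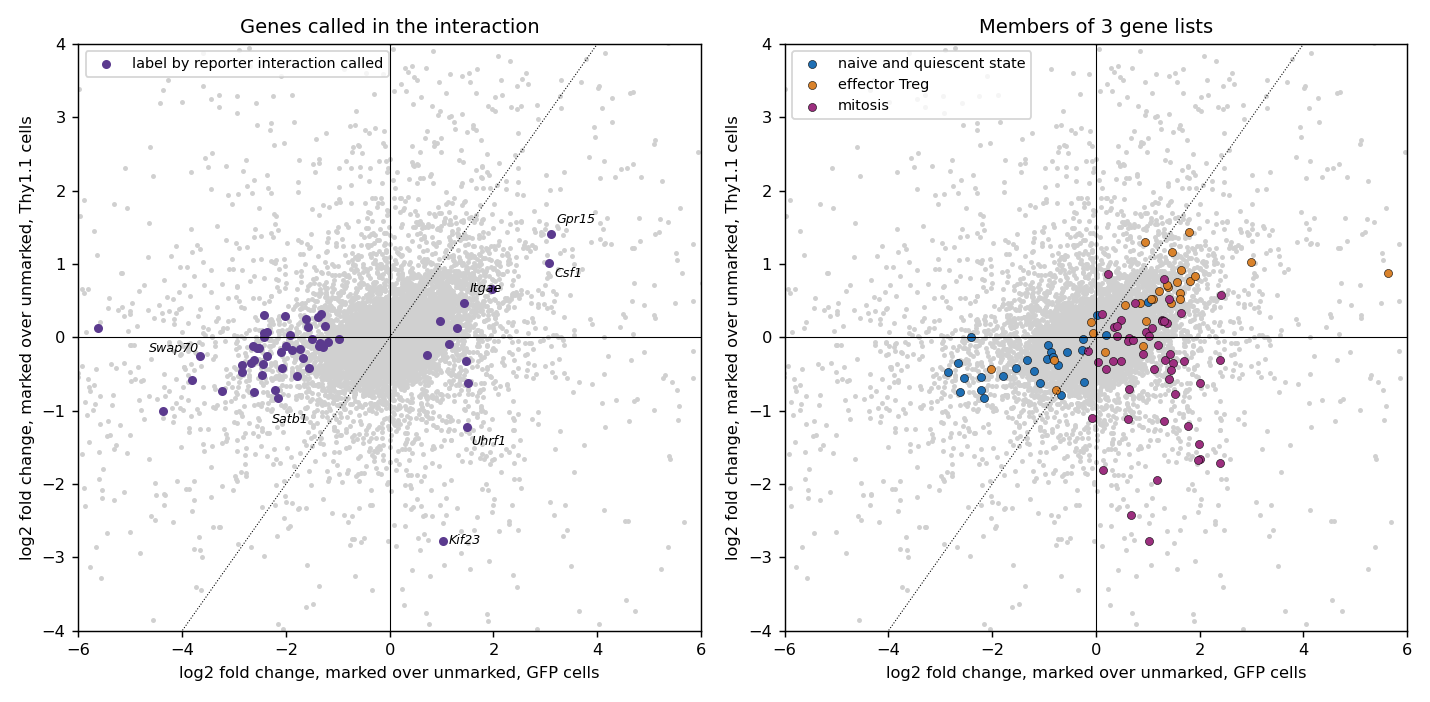
Log2 fold change of marked over unmarked cells in GFP cells (horizontal axis) and in Thy1.1 cells (vertical axis); each point is a gene, grey points are all genes tested, and the dotted line marks equal differences. Of 13989 genes, 600 lie outside the axes, 7 of the 62 genes of the left panel among them. Called genes of the interaction (left) lie mostly at GFP differences below 0 with Thy1.1 differences near 0, and naive, effector and mitosis members (right) fill different areas of the plot.

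The test of the difference between both label effects called 62 genes (0.443%), 49 with the Thy1.1 value above the GFP value (0.35%) and 13 below it (0.0929%), and 1792 (12.8%) had an unadjusted p under 0.05. These calls depended on each Thy1.1 library: without marked library 1 or either unmarked library 0 genes were called, and without marked library 2 only Id3 was. Without a GFP library the count was 27 to 119, and DESeq2 called 568 and limma voom 36.

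Thymic and naive genes made up many of these calls. Of the 26 naive genes 8 were called, each with the Thy1.1 value above the GFP value, and of 24 thymocyte and 12 thymic Treg genes 5 and 3. Id3 fell in GFP cells by 2.41 on the log2 scale, from 160 and 173 CPM to 33.7 and 28.7 CPM, whereas it overlapped in Thy1.1 cells (interaction 2.42 ± 0.19, edgeR adjusted p = 0.0129). Nrp1 fell by 1.50 in GFP cells, from 233 and 288 CPM to 90.6 and 94.4 CPM (interaction 1.47 ± 0.23, edgeR adjusted p = 0.0478). Satb1 fell by 2.16 in GFP cells and was at -0.82 in Thy1.1 cells (interaction 1.34 ± 0.14, edgeR adjusted p = 0.0161). For Ikzf2 the fall in GFP cells was 1.29 and the Thy1.1 value 0.25, but the interaction missed the threshold (edgeR adjusted p = 0.131).

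The genes named for the lowest interaction p were Id3, Itm2a, Scml4, Cd81 and Airn. Scml4, a Polycomb-related gene, lay at 206 and 206 CPM in unmarked and at 179.9 and 189 CPM in marked Thy1.1 cells, and at 184 and 185 CPM against 59.7 and 52.2 CPM in GFP cells. Cd81, a tetraspanin gene, lay at 116 and 106 CPM against 119 and 125 CPM in Thy1.1 cells, and at 71.9 and 73.5 CPM against 24.8 and 24.1 CPM in GFP cells. Airn, an antisense RNA that starts within Igf2r, lay at 174 and 171 CPM against 153 and 165 CPM in Thy1.1 cells, and at 211 and 189 CPM against 53.5 and 46.2 CPM in GFP cells. Reads of Airn and of unspliced Igf2r cannot be told apart, since the library kit does not mark strand. In each of these genes the Thy1.1 groups lay close together while the GFP groups were far apart.

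A few effector, intestinal and cell cycle genes were among the 13 called with the Thy1.1 value below the GFP value: 2 of 27 effector, 1 of 17 intestinal Treg, 3 of 44 DNA replication and 1 of 53 mitosis genes. Itgae was higher by 0.46 in marked Thy1.1 cells and rose by 1.44 in GFP cells, from 233 and 233 CPM to 651 and 611 CPM (interaction -0.98 ± 0.12, edgeR adjusted p = 0.0194). Gpr15 was at 1.41 in Thy1.1 cells and rose by 3.11 in GFP cells (interaction -1.70 ± 0.26, edgeR adjusted p = 0.0478). Uhrf1 was at -1.22 in Thy1.1 cells and rose by 1.48 in GFP cells, from 39.0 and 31.8 CPM to 121 and 76.6 CPM (interaction -2.70 ± 0.37, edgeR adjusted p = 0.0326). Mcm10 was at 13.8 and 6.80 CPM in unmarked and 27.5 and 20.7 CPM in marked GFP cells (edgeR adjusted p = 0.0165 for the interaction), and Kif23 at 6.82 and 5.46 CPM against 13.6 and 11.3 CPM (edgeR adjusted p = 0.0478). For Mcm10, Kif23 and Uhrf1 the marked cells were thus the lower ones with Thy1.1 and the higher ones with GFP.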

How the data were processed

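RNA of 8 libraries of mouse mesenteric lymph node CD4 T cells was measured, 4 of them from Thy1.1 cells. The authors deposited a table of raw counts per gene for all 8 libraries. The libraries were made with the SMART-Seq v4 kit, per the labels' protocols, and DESeq is named in the submitters' processing notes; which aligner, genome build and annotation were used is not given in the sources used here. Of 24116 rows, 8 without a gene name (0.0215 to 0.0264% of counts) were left out. Depth was 38085686 to 47908198 counts per library, and 3 counts correspond to 0.0614 to 0.0806 CPM, a floor that covers counting error only.

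CPM values and tests came from edgeR 4.0.16 in R 4.3.3: trimmed mean of M-values scaling, a low-count filter (filterByExpr, minimum count 10), group means over all 8 libraries and the quasi-likelihood test, with Benjamini-Hochberg adjustment over 13989 genes at 0.05. Standard errors and 95% intervals are of the log2 difference. Alternatives were DESeq2 1.42.0, limma 3.58.1 with voom, other scalings and filters, a fit of 4 libraries and each library left out. A replicate block was set by the numbers of the Thy1.1 libraries and left GFP libraries unblocked. A correction for exonic length from the GENCODE mouse annotation was chosen after seeing the data. The script was tested on simulated data. Separate animals are not stated for the libraries; p-values therefore cover only the spread between these samples, which may be technical. The groups were taken from sample titles; GFP columns carry the numbers 3 and 4.

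The members and the 40 gene lists were chosen with earlier results of these data known. Genes were named by rule: up to 4 per list with the lowest p, a set list of Treg genes, defining markers of other cells, and the 5 with the lowest interaction p. Bcl2, Nsg2, Pdlim1, Ldhb, Ssbp2, Cd1d1, Swap70, Gata1, Mcm2, Tnfrsf1b, Ifit3, Igf2r, Fam65b, Kcna3, Eea1, Galnt10, Uck2 and Zfp599 were named after their values were seen. Some genes the rule names are not reported here.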

Additional observations from a re-analysis of the deposited data

Results flagged for a closer look

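The label difference differed between Thy1.1 and GFP cells for 62 genes by the edgeR test of the difference itself, and the values that follow are the Thy1.1 label difference minus the GFP label difference on the log2 scale. Without marked Thy1.1 library 1 or either unmarked Thy1.1 library 0 genes were called, and without marked Thy1.1 library 2 only Id3 was.

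Among naive and thymic genes the value was 2.42 for Id3, 2.39 for Bcl2, 2.32 for Nsg2, 1.50 for Bach2, 1.34 for Satb1, 1.26 for Pdlim1 and 1.13 for Lef1. It was 2.47 for Itm2a, 1.96 for Ssbp2, 1.86 for Ldhb and 1.63 for Cd1d1. It was 3.40 for Swap70, 3.23 for Gata1 and 1.47 for Nrp1. Outside these lists it was 1.94 for Igf2r, 1.88 for Airn, 1.71 for Cd81 and 1.56 for Scml4.

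Values below 0 were found for Itgae at -0.98, Gpr15 at -1.70 and Tnfrsf1b at -0.75. Among cell cycle genes the value was -2.70 for Uhrf1, -3.80 for Kif23 and -0.96 for Mcm2. The fitted value of Mcm10 was -8.61, which rests on 2 counts in marked Thy1.1 cells and depends on the model.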

How the results depend on the processing

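No gene was called for the label in Thy1.1 cells under any left-out library, other scaling or filter, limma voom, the replicate block over 8 libraries or the length correction. DESeq2 called 148, with Satb1, Gpr15, Bach2, S1pr1 and Maf among them. The fit of 4 libraries called 2, and that fit with a replicate block called 3, with Satb1 among the 3. In these 2 fits 1817 and 1986 genes had an unadjusted p under 0.05. Leaving out a library gave 515 to 1390 such genes. The interaction count was 109 without a filter, 133 with at least 5 CPM in 2 libraries, 568 by DESeq2, 36 by limma voom, 0 with a replicate block and 0 to 119 with a library left out. The GFP count was 2974 by DESeq2, 1117 with the block and 458 to 1801 with a library left out, and the share of its genes with the same direction in Thy1.1 cells was 80.63%, 87.65% and 82.15 to 88.43%. The block was set by the numbers of the Thy1.1 libraries only, so the GFP libraries were not blocked in any of these fits. Numbers of replicates do not pair the samples by the labels. The correlation of same-numbered deviations was 0.0509 over 13989 genes and 0.245 over 10202 genes. The cause of these changes was not tested.

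The thymocyte median was -0.04396 without a filter, 0.01772 with the stricter filter, -0.04613 in the fit of 4 libraries and -0.02504 with the length trend removed. With the stricter filter the suppression median was 0.4449, the inhibitory receptor median 0.4224 and the S100 median 0.2875. The inhibitory receptor median was 0.4729 by limma voom, 0.4803 with the replicate block and 0.4844 with the block in 4 libraries, and the mitosis median -0.2356 by limma voom and -0.2334 with that block in 4 libraries. With the length trend removed, medians were -0.08443 for thymic Treg, 0.5267 for Th2, 0.08627 for S100, 0.00534 for cytokine receptor and -0.04996 for DNA replication genes.

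With a library left out, medians ranged from -0.363 to -0.2964 for naive, -0.1613 to -0.004102 for thymocyte, -0.2891 to -0.08392 for thymic Treg, 0.5255 to 0.6074 for effector, 0.5828 to 0.9151 for intestinal and 0.405 to 0.5652 for homing genes. They ranged from 0.2136 to 0.3795 for Th1, 0.5517 to 0.6688 for Th2, 0.3785 to 0.8302 for Th17, 0.312 to 0.6074 for follicular, 0.088 to 0.2399 for Treg identity, 0.3236 to 0.4542 for inhibitory receptor and 0.1672 to 0.289 for S100 genes. They ranged from -0.376 to -0.08644 for mitosis, -0.1324 to -0.03581 for DNA replication, -0.04746 to 0.08952 for survival, -0.2542 to -0.0641 for cholesterol and 0.08829 to 0.1589 for TNF family genes. They ranged from -0.02316 to 0.134 for antigen receptor, -0.03862 to 0.1783 for handling stress and -0.5807 to 0.6169 for interferon genes.

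Of 79 named genes, 71 kept the direction of their Thy1.1 label difference in every setting. In at least 1 setting 35 of the 79 passed the adjusted threshold, which none did in the main fit. Direction changed for genes near 0 or split by library number. Foxp3 was at 5.427e-06 with DESeq2's size factors in edgeR, 0.028 with library totals, 0.01206 with the stricter filter, 3.737e-05 by DESeq2, 0.01462 with the length trend removed and -0.09247 to 0.1151 (0.002372 without marked library 2) with a library left out. Nrp1 was at 0.01178 with library totals, 0.08191 with the length trend removed and -0.2234 to 0.1809 without a library. Id3 was at -0.08119 with the length trend removed and -0.1024 to 0.1451 without a library. Without a library Ifit3 was at -2.34 to 3.579, Isg15 at -0.8798 to 1.258, Il1rl1 at -0.2161 to 0.4219, Ssbp2 at -0.1168 to 0.1992 and Mki67 at -0.5677 to 0.766. Depth limits the genes under 5 CPM, such as Mcm10, E2f7 and Bik.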
